A study of Triticum aestivum with 3 samples.

Results

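The degradome of untreated wheat (Triticum aestivum) leaves is described here from the 3 control libraries of a study of endoplasmic reticulum stress. Its other libraries came from leaves given a reducing agent, DTT, alone or with the bile acid TUDCA, and no treatment is compared with another here. The control group was leaves of wheat seedlings that received neither agent and that the labels place, with all samples, at 2 days of treatment. The series lists 1 control sample, the tables hold 3 control columns, and the design text speaks of independent biological replicates, so the columns were taken as these. The labels used here name neither cultivar nor genotype. Degradome sequencing reads RNA fragments with a monophosphate at the 5′ end, here their first 36 nucleotides, made from poly(A)+ RNA. The deposited tables list pairs of a small RNA and a transcript with the degradome reads assigned to each pair. The members were all pairs with at least 1 read in a control library, 6840 of the 12451 pairs in the tables used. They joined 984 small RNAs to 4033 transcripts. Related small RNAs and gene copies are listed apart, so that reads recur over lines. Lines taken to hold the same reads were joined into 1 signal, named after whichever line had most control reads, which left 2371 signals (4575 in the whole series) with 16089 reads. Without this step the lines would add up to 126598 reads.

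Plant microRNAs guide an ARGONAUTE protein to transcripts with nearly perfect complementarity, and the protein cuts the transcript within the paired stretch. The downstream fragment is left with a 5′ monophosphate, so a slicing site shows as a pile of read starts at 1 position, while ordinary RNA turnover adds scattered 5′ ends. In leaves, the conserved families restrain many transcription factors of growth and development, and others act on auxin perception, nutrient uptake and the silencing machinery itself. Bread wheat is hexaploid, so most genes are present as A, B and D copies (homeologs) that are very alike, and a read of 36 nt can match several of them. The tables used here give no cleavage position, no transcript annotation and no level of the small RNAs or transcripts. Whether a signal arose by slicing was therefore not tested, and target classes are given below only as background on each family. No small RNA or transcript sequences are shown, since the files used here hold none.

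The 3 libraries held 12548651, 12367523 and 11253643 reads. Of these, 5092, 5864 and 5133 lay in the signals, which is 0.0445% ± 0.00354 of a library (SD, n = 3). Scaled to 10M (1e+07) library reads, the scale of every level below, the signals held 4058, 4741 and 4561 reads. Replicate 1 was thus the lowest by this measure although it was the deepest library. Replicates 1, 2 and 3 showed 1163, 1242 and 1167 signals.

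The reads in signals were unevenly spread. The strongest 10 signals held 28.6% of the 16089 reads (28.1%, 30.2% and 27.9% when ranked within each library), 54 signals held 50% and 1101 were needed for 90%. The strongest of all was that of PC-3p-103864_22, a predicted candidate small RNA with no family number, on the transcript Novel12989. It had 241, 365 and 290 reads, or 248 ± 52.2 per 10M. Its raw and normalized read numbers were equal, which the reading given under the methods takes as reads with 1 mapping place. Its replicates differed by more than counting noise (adjusted p = 0.000180, exact multinomial test described below), with replicate 1 lowest.

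The family of miR160, which represses auxin response factors, supplied 2 of the 4 strongest signals. The tae-miR160 signal shared by transcripts on 1AL, 1BL and 1DL had 249, 270 and 265 reads (217 ± 18.5 per 10M). That shared by 7AL, 7BL and 7DL had 143, 142 and 170 reads (127 ± 21.2 per 10M). In both, the raw reads were about 3 times the normalized ones (3.00 and 2.99), matching the 3 transcripts listed. A tae-miR160 signal on 6AL alone followed with 48, 55 and 81 reads (51.6 ± 17.9 per 10M), with a ratio of 1.00. The highest library of the 6AL signal was replicate 3 and the lowest replicate 1, and the libraries differed beyond counting noise (adjusted p = 0.0159, exact test). A signal on 2BL had 8, 13 and 30 reads (14.5 ± 10.7 per 10M, adjusted p = 0.00548, exact test), again highest in replicate 3.

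**Figure D1:**
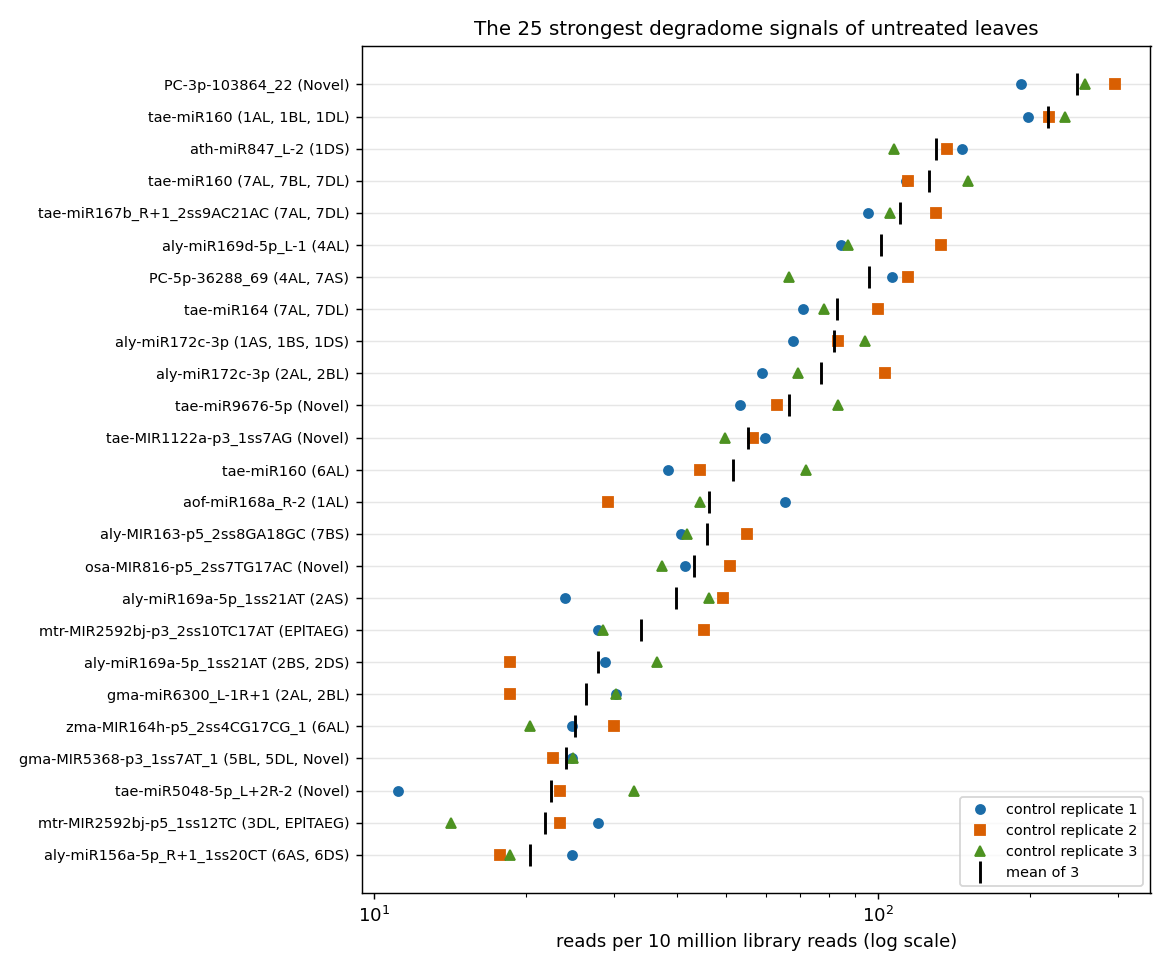
The 25 strongest signals of untreated leaves, each named by its small RNA and the chromosome arms of its transcripts, on a log axis of reads per 10M library reads. Coloured points are the 3 control libraries and black bars their mean; the means run from 248 for PC-3p-103864_22 to 20.4 for the miR156a signal on 6AS and 6DS.

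The other strong signals belonged to a mix of conserved families and names from other species. That of ath-miR847_L-2 on 1DS was the third strongest, with 184, 170 and 121 reads (131 ± 20.5 per 10M). In Arabidopsis miR847 targets an Aux/IAA repressor of auxin signalling. Only 1 transcript is listed for this signal, yet its raw reads were 5.36 times the normalized ones. Those of tae-miR167b_R+1_2ss9AC21AC (7AL, 7DL) were 120, 161 and 119 (111 ± 17.8 per 10M), and miR167, like miR160, acts on auxin response factors, of another clade.

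The aly-miR169d-5p_L-1 signal on 4AL had 84.5, 133 and 87.1 reads per 10M (102 ± 27.5), and miR169 targets the NF-YA subunits of a CCAAT-binding factor. PC-5p-36288_69 had 134, 142 and 75 reads on 4AL and 7AS (96.1 ± 25.8 per 10M). Here replicate 3 stood apart below, and in the miR169 signal replicate 2 above. As background, the long arm of wheat chromosome 4A carries a segment that moved there from the short arm of 7B, so 4AL and 7AS hold homeologous genes. Next came tae-miR164 (7AL, 7DL) with 89, 124 and 88 reads (83.1 ± 15.3 per 10M), of a family that represses NAC transcription factors. The aly-miR172c-3p signals stood on 1AS, 1BS and 1DS with 85, 103 and 106 reads (81.7 ± 13.3 per 10M) and on 2AL and 2BL with 74, 128 and 78 (77.3 ± 23.3 per 10M). The miR172 family represses AP2-like transcription factors.

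Over the remaining 15 of the 25 strongest signals the means ran from 66.7 to 20.4 per 10M. The tae-miR9676-5p signal on Novel13637 had 67, 78 and 94 reads, and tae-MIR1122a-p3_1ss7AG on 2 unplaced transcripts, Novel11325 among them, 75, 70 and 56. The aof-miR168a_R-2 signal on 1AL had 82, 36 and 50 reads, with replicate 1 more than 2 times replicate 2. miR168 regulates AGO1, the ARGONAUTE through which most plant microRNAs act. Also in this range were aly-MIR163-p5_2ss8GA18GC (7BS; 51, 68 and 47 reads), osa-MIR816-p5_2ss7TG17AC (Novel08264; 52, 63 and 42) and aly-miR169a-5p_1ss21AT on 2AS (30, 61 and 52) and on 2BS and 2DS (36, 23 and 41). Both mtr-MIR2592bj signals, on 9 EPlTAEG transcripts (35, 56 and 32 reads) and on 3DL with EPlTAEG transcripts (35, 29 and 16), were there too, as were gma-miR6300_L-1R+1 (2AL, 2BL; 38, 23 and 34), zma-MIR164h-p5_2ss4CG17CG_1 (6AL; 31, 37 and 23) and gma-MIR5368-p3_1ss7AT_1 (5BL, 5DL and Novel07618; 31, 28 and 28). The last of the 25 were tae-miR5048-5p_L+2R-2 (Novel08021; 14, 29 and 37 reads) and aly-miR156a-5p_R+1_1ss20CT (6AS, 6DS; 31, 22 and 21). The most even of the 25 was gma-MIR5368-p3_1ss7AT_1, with a coefficient of variation of 5.17%, and the least even tae-miR5048-5p_L+2R-2 with 48.4%. Of the 25 signals, 13 belonged to conserved families.

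Summed by family number, reads came from 206 families, and 26 of these had at least 100 reads. The 5 leading families held 31.5% of all reads and the leading 25 held 65.2%. The order began with miR160 at 375, 425 and 514.5 reads per 10M (438 ± 70.9), miR169 at 276, 382 and 333 (330 ± 53.4) and miR172 at 218, 298 and 256 (257 ± 39.6). With lines merged as above, these families held ranks 1, 2 and 3 in each library. Neighbours overlapped, however, since the highest miR169 library exceeded the lowest miR160 library and the highest miR172 library the lowest miR169 library. The next 4 were miR5368 (191 ± 2.87), miR164 (186 ± 12.2), miR847 (176 ± 28.5) and miR167 (160 ± 13.6), of which each overlapped the next in range, while miR5368 and miR167 did not overlap. Every miR172 library lay above every miR5368 library, and every miR167 library above every library of miR1122, the eighth (123 ± 9.84). These were the only gaps without overlap, as 22 of the 24 neighbouring pairs among the leading 25 families overlapped in range. With 3 libraries, an exact sign-flip test cannot give a p under 0.25, so the order was not tested.

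Ranks were compared between libraries. Among the leading 25, 24 families were in the leading 25 of every library, against 19 of 25 signals. For the leading 10 the numbers were 8 families and 8 signals. The names matter as well. With small RNAs named for wheat (tae) alone, 5 of the leading 10 families remained among the leading 10, namely miR160 (428 ± 71.3), miR1122, miR164, miR167 and miR5048. The families miR169, miR172, miR166, miR847 and miR5368 had no reads under tae names, their lines all carrying names of other species.

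**Figure D2:**
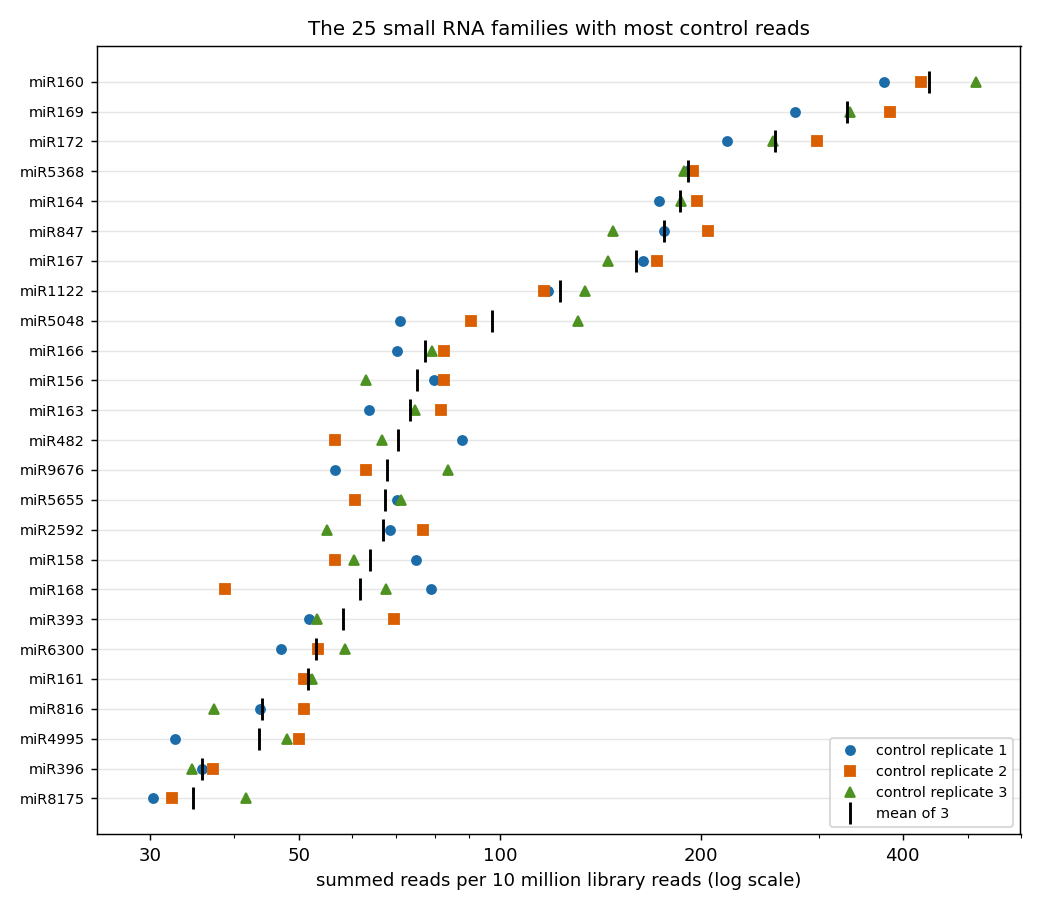
Summed reads of the 25 leading small RNA families per 10M library reads on a log axis. Coloured points are the 3 control libraries and black bars their mean; miR160 leads with 438, and the ranges of most neighbouring families overlap.

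Families differed in how their reads were spread over transcripts. In miR160 the 4 strongest of 38 signals held 93.6% of the reads, in miR167 4 of 27 held 89.8%, and in miR168 4 of 14 held 90.1%. The miR847 family was nearly 1 signal, with 74.2% of its reads on the 1DS transcript and 76.2% on its 2 strongest signals together. With the normalized read number in place of the raw one, its level was 58.4 per 10M, and without its strongest signal 45.5. In miR169, by contrast, the 4 strongest of 131 signals held 56.4%. After the 4AL, 2AS and 2BS/2DS signals came one on 5BL with 20, 19 and 23 reads. Wheat 4AL matches 4BS and 4DS, and aly-miR169d-5p_L-1 also had signals there, 10, 35 and 13 reads on 4DS and, singled out after its values were seen, 3, 11 and 6 on 4BS. All 3 had a ratio of 1.00 and were highest in replicate 2. The miR5368 family had 160 signals on 241 transcripts, against 284 transcripts for miR169, and held 26.3% of its reads in its 4 strongest signals, the lowest such share of the leading 10. At the other end, miR9676 and miR816 held 98.4% and 98.1% of their reads in 1 signal each, both on unplaced transcripts, Novel13637 and Novel08264.

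Within miR172, a signal named for the other arm, ata-miR172c-5p_R-3 on 5BL and 5DL, had 17, 21 and 19 reads, next to an aly-miR172c-3p signal on a different 5BL and 5DL pair with 13, 13 and 15. Neither differed beyond counting noise (adjusted p = 0.846 for both, exact test). In miR164, tae-miR164 signals on 5AS, 5BS and 5DS (20, 12 and 27 reads) and on another set of 7AL, 7BL and 7DL transcripts (16, 5 and 12) followed the signals already named. In miR167, osa-miR167d-5p_L-3R+1 and osa-miR167d-5p_L-4R+1 stood on the same 5BL transcript with 32, 10 and 18 and with 30, 7 and 15 reads. Those 2 signals are probably for the most part the same reads, and were kept apart by the 20% merging rule.

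The list of 29 conserved families was chosen with earlier results of these data known. Of these, 27 had control reads as the leading name of a signal. They held 41.4% ± 0.481 of the reads (40.9%, 41.5% and 41.9% in replicates 1 to 3) in 612 of the 2371 signals. The miR165 family, a near copy of miR166, was named in none. miR5168, a grass family related to miR166, led none either but was named in 5 signals merged under miR166.

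The families that act on regulators of growth and development ranged widely in level. The family miR166, which acts on HD-ZIP III transcription factors, had 70.1, 82.5 and 79.1 reads per 10M. Its strongest signals, bdi-MIR166g-p3_2ss11TA17TG on 3AS and 3DS (17, 20 and 9 reads) and on 3B (13, 12 and 9), had names of precursor arms only. The strongest with a mature name, aof-miR166b_L-2 on 1AL, 1BL and 1DL, had 8, 11 and 13 reads. miR156, which represses SPL factors and with miR172 times the change from juvenile to adult leaves, had 79.7, 82.5 and 63.1. Its 3B signal, aly-miR156a-5p_R+1_1ss20CT, had 8, 6 and 6 reads. miR396, of growth-regulating factors, was low and even at 35.9, 37.2 and 34.7, and its reads lay over 43 signals of at most 12 reads. miR157, which like miR156 represses SPL factors, was at 5.05 ± 2.42 from 1 signal of 18 reads. miR156 led 57 signals with 273 reads and was named in 58 with 291. The families miR159 (GAMYB factors), miR319 (TCP factors) and miR171 (SCL GRAS factors) were at 15.05 ± 6.19, 5.43 ± 2.66 and 15.2 ± 0.139. miR319 led 7 signals with 20 reads but was named in 9 with 58, the rest being counted under other family names. Not all of these levels are therefore separate. The monocot family miR444, which represses MADS-box genes, was at 20.4 ± 1.61, with its strongest signal bdi-MIR444b-p3 on 7AL and 7DL at 7, 9 and 7 reads.

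Of the families tied to auxin perception, miR393, which acts on TIR1/AFB receptors, had 51.8, 69.5 and 53.3 reads per 10M. Its strongest signal, aly-miR393a-5p_1ss16TC on 2AL, 2BL and 2DL, had 6, 22 and 19 reads, and osa-miR393a_L+1R+1 on the same transcripts 6, 17 and 16, both lowest in replicate 1. Those 2 signals, with 40.8% of the family's reads, are probably for the most part the same reads, kept apart by the 20% merging rule. They are therefore not 2 separate observations. miR390, which triggers trans-acting siRNAs against auxin response factors, was at 11.2 ± 7.16, and miR394, which targets an F-box gene, at 16.9 ± 8.21.

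Among the families that act on the silencing machinery, miR168 stood at 78.9, 38.8 and 67.5 reads per 10M. miR403, which acts on AGO2 in dicots, was at 9.87 ± 5.98, and miR162, which acts on DCL1, at 9.46 ± 3.29. Among phosphate and sulfate families, miR827 (SPX-domain genes) stood at 23.8 ± 9.72, lowest in replicate 1. It was led by ath-miR827_L-2 on 6BL with 11, 18 and 20 reads. The family miR395 (ATP sulfurylase) was at 5.85 ± 1.18 and miR399 (PHO2) at 5.42 ± 4.00. Among the copper-related families, miR397 (laccases) was at 11.9 ± 0.935, miR398 (copper/zinc superoxide dismutase) at 8.40 ± 4.35 and miR408 (plantacyanin and laccases) at 1.67 ± 1.62. The family miR528 had 1 read and miR1432 had 2 in all 3 libraries, so their levels are not measured at this depth. No order can be read among most of these low families, whose libraries overlap.

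Families outside the conserved list held the other places among the leading 25, and most carry numbers first given in other species. In miR1122, tae-MIR1122c-p3 on Novel12989 followed the leading signal with 10, 14 and 13 reads. The miR5048 family had the widest relative spread of the leading 10, at 70.9, 90.6 and 131 reads per 10M, and tae-miR5048-5p_L+2R-2 on Novel08021 was called as differing between libraries (adjusted p = 0.0174, exact test). miR482 stood at 87.7, 56.6 and 66.6, highest in replicate 1. The next were miR163 (73.4 ± 9.03), miR9676 (67.7 ± 14.1), miR5655 (67.3 ± 5.77), miR2592 (66.8 ± 10.96), miR158 (64.0 ± 9.66), miR6300 (53.0 ± 5.82), miR161 (51.7 ± 0.747), miR816 (44.0 ± 6.81), miR4995 (43.6 ± 9.52) and miR8175 (34.8 ± 6.12). Among the leading 25, miR161 and miR5368 had the smallest spread over libraries, at coefficients of variation of 1.44% and 1.503%. With 65, 63 and 59 reads for miR161 and 239, 240 and 212 for miR5368, such spreads are smaller than counting error alone gives on average. Within miR161, the aly-miR161-5p.2_R-3 signal on 4DL, 7BL and 7DS was called as differing between libraries, with 1, 9 and 12 reads. The PC candidates, which have no family number, summed to 474, 616 and 547 reads per 10M over 182 signals, and 63.2% of their reads lay in the 2 leading signals. After those, PC-3p-846791_2 on 7BL had 13, 25 and 15 reads and PC-5p-177515_11 on Novel10501 had 19, 11 and 17.

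The names behind the signals were mostly not from wheat: of the 984 small RNAs, 91 had tae names, 814 names of other species and 79 PC names. A mature wheat microRNA name stood on 125 signals with 19.4% of the reads. A mature name of another species, and no mature wheat name, stood on 723 with 34.9%, some of which also had precursor names of wheat. Signals with names of precursor arms (written MIR with p3 or p5) and no mature name, wheat arms included, were the most numerous, 1342, but held 33.4%. Those named PC alone were 181 with 12.3%. The share read in all 3 libraries was 27.2% of the first class, 17.2% of the second, 12.5% of the precursor arms and 14.9% of the PC signals. These classes also differed in reads per signal, on which detection rests, as shown next.

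Most signals were thin. A single read made up 933 of the 2371 signals (39.4%), and the median was 2 reads. Of all signals, 1523 (64.2%) were read in 1 library, 495 (20.9%) in 2 and 353 (14.9%) in all 3. These last held 72.3% of the reads, while those in 1 library held 15.1% and never more than 9 reads. Reads in signals of 1 library made up 14.9%, 15.2% and 15.3% of the 3 libraries. Detection in all 3 libraries was 12 of 778 for signals of 2 to 3 reads, 137 of 442 for 4 to 9, 99 of 113 for 10 to 19, and 66 of 66, 20 of 20 and 19 of 19 in the classes above. Absence of a signal of under 10 reads from a library thus says little.

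**Figure D3:**
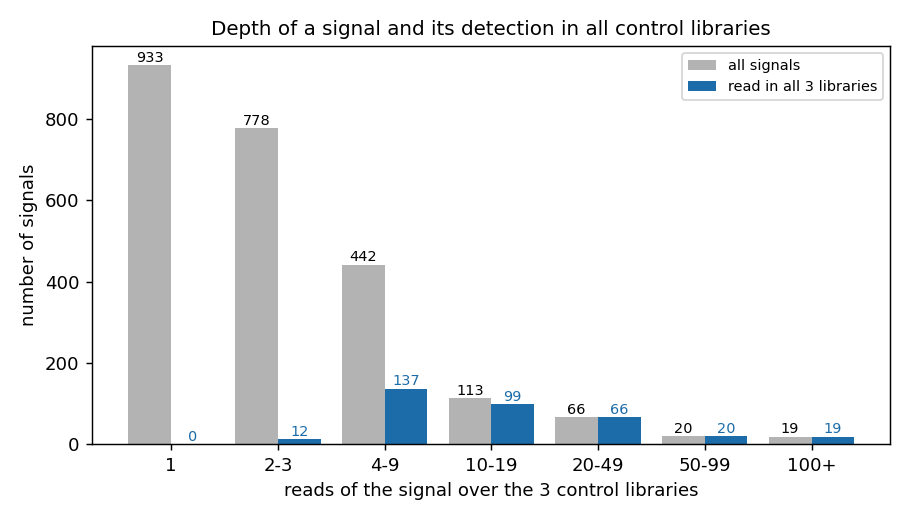
Number of signals by their reads over the 3 control libraries (grey bars) and number of these read in every library (blue bars). Of the 933 signals of 1 read none can be in all 3, and of those with 20 reads or more all are.

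Agreement between replicates was compared over signals of different depth. Over all 2371 signals, Pearson's r of log2(reads per 10M + 1) lay between 0.50 and 0.51, but Spearman's rho only between 0.099 and 0.109. Over the 218 signals of 10 reads or more, r was 0.72 (replicates 1 and 2), 0.75 (1 and 3) and 0.69 (2 and 3). Spearman's rho was 0.51, 0.62 and 0.52 over the same signals. Over the 199 of these with fewer than 100 reads, r fell to 0.36, 0.50 and 0.34. Over the 206 families r was 0.88 for each pair, and rho was 0.80 to 0.81. These correlations describe signals or families that share a library and are no test. The biological coefficient of variation, edgeR's estimate of the spread beyond counting noise, was 36.4% over the 218 signals. Along its trend it was 53.3% for signals of 10 to 19 reads and 24.2% for those of 100 or more.

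Each signal of 10 reads or more was tested for a spread over the 3 libraries beyond what their read totals give, with an exact multinomial test adjusted by the Benjamini-Hochberg method over all 218. The test called 30 signals (13.8%), and 70 had an unadjusted p under 0.05. Conserved families held 13 calls among 81 tested (16.0%), near the share of all signals. These include both osa-miR167d-5p signals on 5BL (adjusted p = 0.0289 and 0.0107, exact test), which are probably for the most part the same reads. In 17 of the 30 replicate 1 was lowest, and in 16 replicate 2 was highest. Over all 218 tested signals, replicate 2 was highest in 87, replicate 3 in 78 and replicate 1 in 53. The lowest library was not counted over all tested signals. With the reads in signals in place of the library reads as sizes 11 signals were called, of which 10 were among the 30. The leading signal PC-3p-103864_22 was not among them (adjusted p = 0.0527, exact test). Without replicate 1 there were 3 calls, without replicate 2 there were 9 and without replicate 3 there were 13. Of the 30, 4, 8 and 6 then fell below 10 reads and were not tested. None of the 30 was called in every one of these settings and in a chi-square test. A call that rests on 1 library standing apart is readily lost when that library is left out, so this does not measure how firm the calls are. These p-values take each read as an independent molecule, which PCR copies are not, so the calls and intervals of this kind cover counting error only.

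The called signals with few reads had 1 library far from the rest. gra-MIR482d-p5_2ss16AT18AT on Novel06658 had 23, 2 and 5 reads (adjusted p = 0.000938, exact test), and miR482 targets NBS-LRR resistance genes in dicots. That call was also made with the signal totals as sizes (0.000205) and without replicate 2 (0.0327) or 3 (0.00154), while without replicate 1 it fell below 10 reads. gma-MIR5368-p3_2ss16CT18TC on a 3B transcript had 3, 1 and 14 reads, and PC-3p-177130_11 on 2 unplaced transcripts 2, 16 and 16. The aly-miR169d-5p_L-1 signal on 4DS had 10, 35 and 13, with replicate 2 highest as on 4AL. Both miR169 signals lost the call without replicate 2 (adjusted p = 0.687 on 4DS and 1 on 4AL, exact tests). The 4AL signal lost it also with the signal totals (0.0527), and that on 4DS without replicate 1 (0.0803).

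Of the other named calls, that of miR168 on 1AL was lost without replicate 1 (0.247) or 2 (0.204), that of miR172c on 2AL and 2BL without 1 (0.0803) or 2 (0.652) and with the signal totals (0.0527), and that of PC-5p-36288_69 without 3 (0.839), all by the exact test. The miR160 calls on 2BL and 6AL were lost without replicate 1 (0.0803 for both) or 3 (0.592 and 0.821), and that on 6AL with the signal totals (0.0506). The MIR5368 call was lost without replicate 2 (0.0516) and not tested without 3, and that of PC-3p-177130_11 was lost without replicate 1 (0.985). PC-3p-103864_22 lost its call without replicate 1 (0.309), and tae-miR5048-5p_L+2R-2 without 1 (0.475) or 3 (0.123) and with the signal totals (0.0527).

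**Figure D4:**
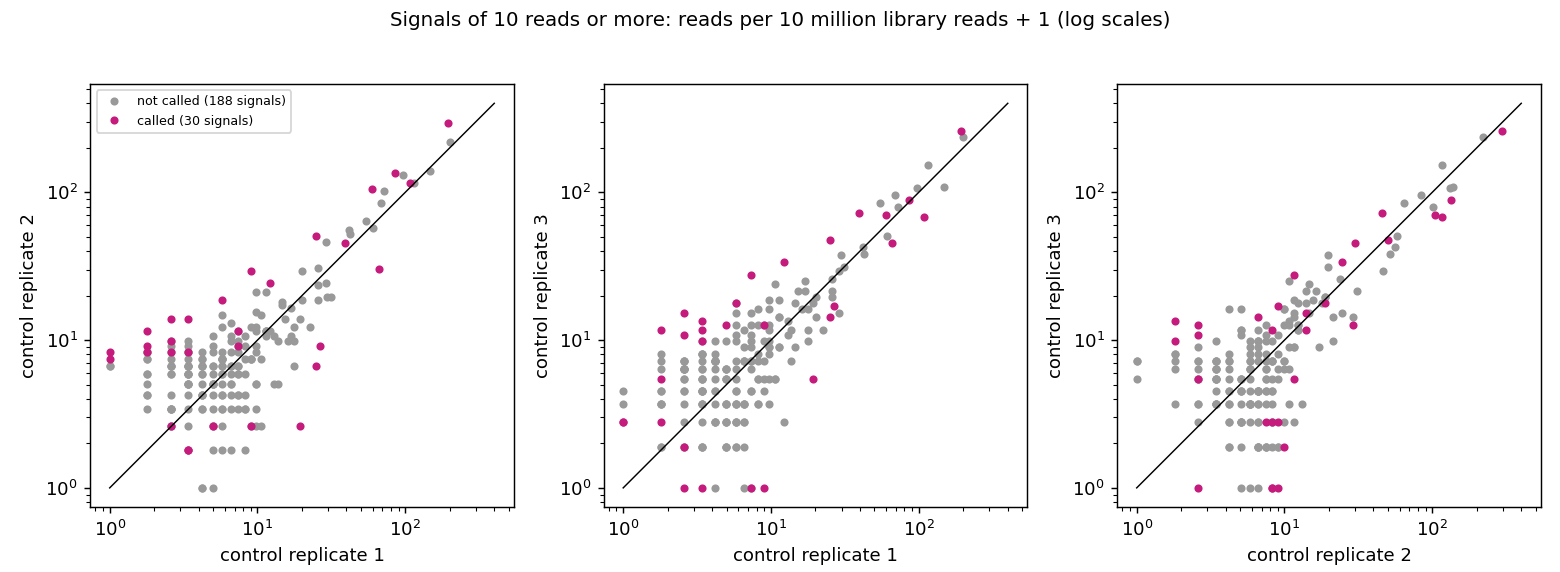
Reads per 10M library reads plus 1 of the 218 signals of 10 reads or more, for each pair of control libraries, on log axes with the line of equality. Pink points are the 30 signals called by the exact multinomial test and grey points the other 188; the cloud narrows toward the strong signals.

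Signals were placed by the chromosome arm in the transcript's name. Those listed on 1 subgenome held 35.6% of the reads (892 signals), those on 2 subgenomes 17.2% (360), those on all 3 20.1% (348), and those on unplaced transcripts alone, whose IDs (such as Novel12989 or EPlTAEG00000000770) name no arm, 23.5% (615). Of the 348 signals on A, B and D, 298 lay within 1 homeologous chromosome group, and these held 94.4% of the reads of the 348. Conserved families held 73.5% of the reads of the 348 signals, led by both miR160 sets and the miR172c set on 1AS, 1BS and 1DS. Among signals on 2 subgenomes, A with D held 1316 reads, A with B 786 and B with D 661. The A and D reads were mostly the miR167b and miR164 signals on 7AL and 7DL, with 400 and 301 reads.

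Among signals on 1 subgenome, A held 700, 703 and 694 reads per 10M, B 433, 490 and 471, and D 392, 463 and 407. All 3 A libraries lay above every B and D library. The ranges of B and D overlapped, but within each of the 3 libraries B was above D (mean difference 43.8 ± 18.8 per 10M). The exact sign-flip permutation test gave p = 0.25 for each of the 3 pairs, raw and adjusted (two-sided, n = 3), the smallest it can give. The shares were 44.1% for A, 29.3% for B and 26.6% for D, from like numbers of signals (290, 304 and 298). The strongest signals on A were the miR169 signal on 4AL (14.6% of the A reads), PC-5p-36288_69 (13.9%), tae-miR160 on 6AL (7.28%) and miR168 on 1AL (6.64%). PC-5p-36288_69, on 4AL and 7AS, counts under A by its arm names alone. As said above, 4AL carries a segment from another subgenome, and whether this signal's transcript lies there was not tested. On B the first were aly-MIR163-p5_2ss8GA18GC on 7BS (9.89%) and aly-miR170-3p_R-3 on 2BL with 24, 35 and 15 reads (4.41%). On D the miR847 signal on 1DS alone held 31.2%.

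A transcript listed on 1 subgenome may not be the only place its reads map to. The raw reads were 5.36 times the normalized ones for miR847 on 1DS and 4.98 times for MIR163 on 7BS, but that this ratio counts mapping places was not tested. Where raw and normalized reads were equal, A held 323 ± 16.3 reads per 10M, B 203 ± 17.0 and D 120 ± 32.6, or 50.1%, 31.4% and 18.5% (chosen after seeing the data). In this set every B library lay above every D library. A had the largest share under each alternative run, from 37.9% to 51.6%, but D passed B under 4 of them, those with identical lines merged (27.3% against 25.5%), every listed line (31.0% against 30.01%), 1 line per transcript (32.1% against 30.04%) and spanning signals split over their transcripts (30.8% against 29.9%). Since the number of A, B and D transcripts searched is not given in the sources used here, the shares are not corrected for it.

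**Figure D5:**
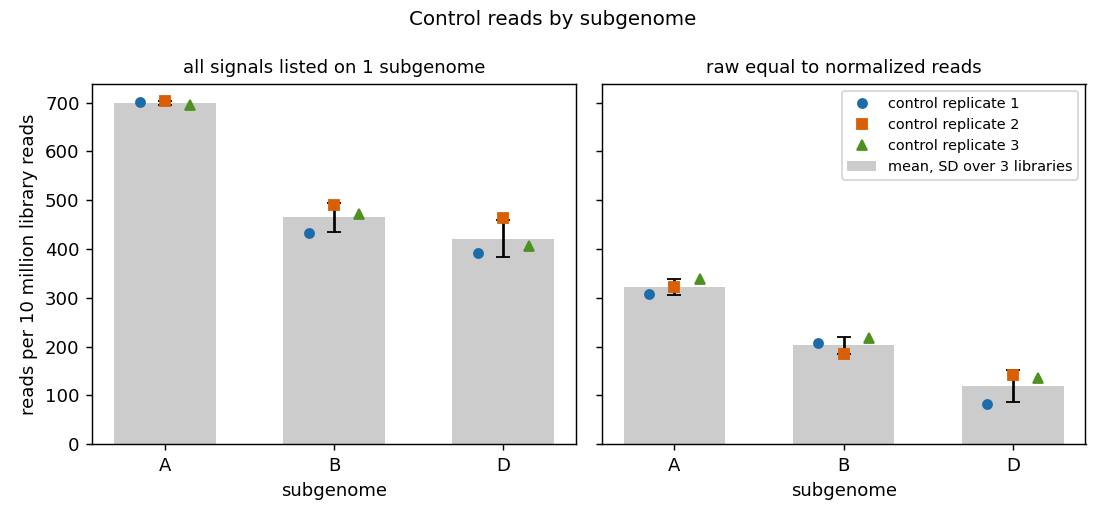
Reads per 10M library reads of signals listed on the A, B or D subgenome alone, for all such signals (left) and for those with equal raw and normalized reads (right). Bars are means with the SD over 3 libraries, points the libraries; A stands at 699 and 323 and is highest in every library of both panels.

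By homeologous chromosome group, signals within 1 group were strongest on group 1 (675 ± 13.9 reads per 10M), group 7 (555 ± 51.1) and group 2 (527.9 ± 58.5), and weakest on group 3 (222 ± 23.4). Groups 5, 6 and 4 stood at 375 ± 1.36, 359 ± 35.1 and 346 ± 36.2, with ranges that overlapped. The tae-miR160 set on 1AL, 1BL and 1DL held 32.1% of the group 1 reads, and that on 7AL, 7BL and 7DL 22.7% of group 7. Without the strongest signal of each group, groups 1, 2 and 7 stood at 458 ± 27.0, 451 ± 37.5 and 428 ± 43.9 and overlapped. All libraries of group 3 lay below those of the other groups. Without its strongest signal, that of aly-miR394a-5p_R+1 on 3AL, 3B and 3DL, group 3 stood at 207 ± 18.96 and was still the lowest mean, but its range then touched that of group 4 (244 ± 21.3).

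Most transcripts were listed with 1 family. Of the 4033 transcripts, 3693 (91.6%) were in signals of 1 family, 295 of 2 and 45 of 3 or more. The transcript with most families was EPlTAEG00000000770, in signals of miR1122, miR1133, miR11451, miR1862 and miR812 with 0, 8 and 11 reads in all. Novel12989, which carries the strongest signal, had 6 signals of 4 family names (PC, miR1120, miR1122 and miR1130) and was first by summed reads as well, with 208, 319.4 and 277 per 10M. It was followed by the transcripts of the leading signals, from Traes_1AL_147CF243C (miR160; 250, 274 and 271 reads) and Traes_1DS_B73475505 (miR847) to Traes_7AL_E3ADC8C38 (miR160) and Traes_7DL_C89614A4D (miR167; 125, 161 and 119). Further down were Traes_4AL_7C4C68FD0 (miR169), Traes_7AS_CB60FA3AE (PC), Traes_1AS_90F3120F8 (miR172; 94, 109 and 114), Traes_7DL_BDD45DB24 (miR164) and Traes_2AL_5BA7E2623 (miR172). In each of these 10 the strongest signal held most of the reads, such as 896 of 968 on Novel12989. Novel10619, EPlTAEG00000002545 and Novel07719 also had 4 family names each, with 34, 16 and 9 reads.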

How the data were processed

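The deposited tables of DTT against control and of DTT with TUDCA against control were used. Per the file headers they give, for each library, raw degradome read counts, a normalized read number and TPB. The deposited normalized number is an estimated count: raw counts were equal to it or larger, probably by the number of places a read maps to. The authors' TPB signal is that number times 1 factor per library, from which the library reads were recovered. The mapper, transcript set or target caller was not given in the sources used here. Control values agreed between tables. Pairs listed more than once (2) were left out. Lines sharing a small RNA or transcript were merged where their counts over 9 libraries differed by 20% or less of the line with more reads. Treated counts served only in this step.

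Signals with at least 10 control reads were tested (exact multinomial, Python 3.11.15, called at an adjusted p under 0.05; spread by edgeR 4.0.16, R 4.3.3). The test was tested on simulated data with counting noise alone, without PCR copies or further spread between replicates. That simulation therefore does not show how firm the calls in these libraries are. Described signals were the 25 strongest, the first 10 called, up to 4 per leading family, and leading transcripts. Members and lists were chosen with earlier results of these data known. The other raw count columns used belonged to the DTT sample and the sample of DTT with TUDCA.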

Additional observations from a re-analysis of the deposited data

How the results depend on the processing

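The main merging gave 2371 signals, with 353 in all 3 libraries, 28.6% of reads in the strongest 10, 41.4% in conserved families, and 44.1%, 29.3% and 26.6% on A, B and D. With every listed line on its own these were 6840 lines, 1766, 6.28%, 85.0% and 38.9%, 30.01% and 31.0%, with 150 lines called in the exact test. With 1 line per transcript they were 4033, 563, 20.7%, 46.3% and 37.9%, 30.04% and 32.1%. With identical lines merged, the strongest 10 held 25.6%, conserved families 45.1%, A 47.2% and B 25.5%. Merging at 5% gave 40.8% for conserved families and 30.8% for B, and merging over the control libraries alone 30.5% for the strongest 10, 42.2% for conserved families and 28.5% for B. With the normalized read number, the strongest 10 held 33.3%, conserved families 46.3%, A 51.6% and D 19.7%. Of the leading 10 families, 5 stayed among the leading 10 with tae names only, and 7 to 10 under the other alternatives. The order at the top also moved. miR172 stood above miR169 with every listed line (6936 against 3361 per 10M) and with 1 line per transcript (586 against 445). Without the strongest signal of each family, miR169 stood above miR160 (229 against 221). The order was kept with the normalized read number and without replicate 2 or 3. For the subgenomes, splitting spanning signals gave 39.3% for A and 30.8% for D, leaving out the strongest placed signal 48.1%, 31.9% and 19.9%, and taking signals with equal raw and normalized reads (added after seeing the data) 50.1%, 31.4% and 18.5%. A minimum of 5 reads left 506 signals, with 36.1% in the strongest 10, and 50 calls. A minimum of 20 left 105 signals, all in 3 libraries, with 49.1%. Without the strongest signal, the next 10 held 26.0%. That setting, and leaving out the strongest signal of each family, were also chosen after seeing the data. Calls fell from 30 to 11 with signal totals as sizes.

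Leaving out each replicate gave 1824 to 1884 signals, 506 to 527 of them in both remaining libraries, 27.8% to 29.2% in the strongest 10, 41.2% to 41.7% in conserved families, 9 to 10 of the leading families, and 43.2% to 45.1%, 29.0% to 29.8% and 25.8% to 27.0% for A, B and D. The test then made 3 to 13 calls, with fewer libraries. The levels of the 10 leading families moved by less than 1 SD in 69 of 120 values. The cause was not tested for any of these. No paired comparison of groups was possible because 1 group was described, but the subgenome test paired A, B and D within each library.

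Depth limits most signals, at a median of 2 reads. Signals without a shared small RNA or transcript name were never merged. Thus ata-miR396c-5p on 5 transcripts and pab-miR396b on 7DS, each with 1, 6 and 3 reads, are probably the same reads.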
